A study of Homo sapiens with 44 samples.

Results

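Messenger RNA levels of 10 genes whose products add or remove acyl and methyl groups at H3K27 were measured in HCT116 cells, a human colorectal carcinoma line. The genes were taken by symbol: EP300, CREBBP, KAT2A, KAT2B, EZH1, EZH2, EED, SUZ12, KDM6A and KDM6B. All 10 were listed under these symbols among the 21272 genes in either of 2 deposited expression tables, and all 10 passed the filter on low reads in both. The first table covered the GAS41 experiment, with 3 libraries in each of 4 groups: unmodified cells (WT), cells with GAS41 knocked out (GAS41-KO), knockout cells with a stable GFP-Flag-GAS41 wt transgene (wt rescue), and knockout cells with the same stable transgene carrying the substitutions Y74A and W93A (mut rescue). The second covered the doxorubicin experiment, with 3 libraries of cells given 500 nM doxorubicin (Dox) and 3 of cells given the solvent DMSO. The parental cells were p53+/+, and the 3 libraries of a group were biological replicates per the labels. How many knockout clones were used, the promoter of the rescue constructs and the length of the doxorubicin treatment are not given in the sources used here. GAS41 is the protein product of YEATS4. It binds acylated lysines of histone H3 through its YEATS domain, in whose binding pocket both substituted residues lie. The series asks how crotonylated H3K27 and GAS41, which binds it, take part in repression of transcription.

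An acyl group and a methyl group cannot occupy the same H3K27 residue, so the enzymes of the 2 kinds of mark act on one substrate. EP300 and CREBBP transfer acetyl groups to H3K27 and can also use other acyl-CoA donors such as crotonyl-CoA. KAT2A (GCN5) and KAT2B (PCAF) are alternative catalytic subunits of the coactivator complexes SAGA and ATAC, and are best known for other lysines of H3. Methylation of H3K27 is the work of Polycomb repressive complex 2 (PRC2), in which EZH2 or EZH1 is the catalytic subunit, EED binds trimethylated H3K27 and stimulates the enzyme, and SUZ12 is the scaffold. EZH2 is typical of dividing cells and EZH1 of resting ones. KDM6A (UTX) and KDM6B (JMJD3) remove the methyl groups.

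The promoters of both pairs of alternative catalytic subunits whose members moved in opposite directions in the knockout are shown here as the 250 bases before the first listed RefSeq start on GRCh38.p14, in the direction of transcription. Capitals mark matches, on either strand, to the CCAAT box (CCAAT), the E-box CACGTG or the E2F sites TTTGGCGC and TTTCCCGC. The windows are chr7:148884292-148884541 on the minus strand for EZH2, chr17:42745041-42745290 on the minus strand for EZH1, chr17:42121368-42121617 on the minus strand for KAT2A and chr3:20040196-20040445 on the plus strand for KAT2B.
EZH2: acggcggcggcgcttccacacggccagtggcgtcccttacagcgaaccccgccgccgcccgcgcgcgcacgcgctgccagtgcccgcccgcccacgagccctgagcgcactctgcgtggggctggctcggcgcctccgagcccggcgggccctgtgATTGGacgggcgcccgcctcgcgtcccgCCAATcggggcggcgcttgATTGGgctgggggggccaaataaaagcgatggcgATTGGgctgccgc
EZH1: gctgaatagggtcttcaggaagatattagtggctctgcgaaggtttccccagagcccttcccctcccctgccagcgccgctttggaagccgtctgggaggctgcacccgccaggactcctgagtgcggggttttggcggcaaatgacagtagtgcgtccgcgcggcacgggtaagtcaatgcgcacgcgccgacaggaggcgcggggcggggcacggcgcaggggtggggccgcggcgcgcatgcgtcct
KAT2A: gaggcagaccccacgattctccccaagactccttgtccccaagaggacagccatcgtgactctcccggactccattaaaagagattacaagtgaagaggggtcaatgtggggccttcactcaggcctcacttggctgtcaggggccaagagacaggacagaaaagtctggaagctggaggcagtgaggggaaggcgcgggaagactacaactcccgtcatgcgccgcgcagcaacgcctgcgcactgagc
KAT2B: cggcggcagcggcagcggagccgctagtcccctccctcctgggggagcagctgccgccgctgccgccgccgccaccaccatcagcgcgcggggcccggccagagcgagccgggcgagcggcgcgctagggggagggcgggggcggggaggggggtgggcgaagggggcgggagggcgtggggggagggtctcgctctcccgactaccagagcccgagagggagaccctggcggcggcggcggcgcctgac
EZH2 had 4 CCAAT matches within 94 bases of this start, and the windows of the other 3 genes had none. A second listed EZH2 start, whose window is chr7:148883486-148883735, had 0 CCAAT matches and 1 GC box. At least 1 CCAAT match was found in 32% of 35116 RefSeq promoter windows of the same length, and at least 4 in 0.874%. None of the 4 windows held the E-box, found in 6.34% of all windows, or either E2F site, found in 0.55% and 1.39%. Among the members not shown, KDM6A had 2 CCAAT matches and 1 E-box. SUZ12 had 1 CCAAT match and 1 E2F site (TTTCCCGC), and EED had 1 CCAAT match. EP300, CREBBP and KDM6B had none of these. The GC box GGGCGG, found in 42.6% of all windows, matched 4 times in EZH2, 3 times in KAT2B, once in EZH1 and not in KAT2A. Matches of different motifs did not overlap, but 2 of the 4 GC boxes of EZH2, at 167 and 163 bases before its start, shared bases with each other. The matches describe letters only.

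Levels are given as normalized reads, the reads of a gene divided by the library's size factor. Reads over all genes ranged from 16857982 to 18546135 per library in the GAS41 experiment and from 17442035 to 18894312 in the doxorubicin experiment. Differences are given on the deposited log2 scale, which is compressed at low levels, so a log2 difference of a gene with few reads is smaller than its fold of normalized reads. A gene was called where limma's Benjamini-Hochberg adjusted p over all tested genes was under 0.05. YEATS4 RNA, the check of the labels, stood between 325.3 and 386.1 normalized reads in GAS41-KO against 608.2 to 625.3 in WT (log2 difference -0.64, adjusted p = 2.09e-06), so RNA of the gene was still counted in the knockout. It stood between 2887 and 3500 in wt rescue and between 2358 and 2551 in mut rescue, 5.26-fold and 4.01-fold over WT. It was lower in mut rescue than in wt rescue (log2 difference -0.37, adjusted p = 0.000443). The rescue groups thus differed in YEATS4 RNA as well as in the substitutions, and the part of its level in their differences was not tested. Of 11 colon epithelial markers, 7 averaged 10 or more normalized reads in every GAS41 group and CDX1 was absent or 0. Of the 7 tested, 3 were higher in GAS41-KO than in WT (KRT8, KRT18 and KRT20) and 2 lower, EPCAM (7503 ± 348 to 914.8 ± 17 normalized reads, SD, n = 3) and CDH1 (1419 ± 17 to 137.8 ± 15.1). Of all tested genes, 26% were higher and 26.6% lower in that comparison. The sum of these markers ranged from 56814 to 60441 in WT and from 63539 to 65401 in GAS41-KO. With doxorubicin 7 of 8 tested rose and EPCAM fell (32.3% and 33.4% of all tested genes). Their sum ranged from 72260 to 87985 in DMSO and from 146037 to 165198 in Dox. Of 7 blood and immune markers, CD3E and HBB were absent or 0 in the GAS41 table and CD68 and LYZ were above 10, and the sum ranged from 193.5 to 212.9 in WT, 215.8 to 238.4 in GAS41-KO and 319.7 to 389.1 in wt rescue. Their part in the differences below was not tested. In bulk RNA, fewer cells that express a gene and less of its RNA per cell cannot be told apart. In wt rescue, replicate 1 stood at least 0.5 log2 above both other replicates for 512 of 14505 tested genes, SUZ12 among them, and no other library stood above both others for more than 4 genes. DMSO replicate 1 stood that far below both others for 58 of 14195 genes.

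Of the 10 genes, 7 were called between GAS41-KO and WT, where 52.6% of all tested genes were called. KAT2A, EZH2 and EED were lower in the knockout (26.6% of all genes were), and KAT2B, EZH1, KDM6A and KDM6B were higher (26% of all genes were). EP300, CREBBP and SUZ12 were not called. The groups did not overlap for 8 of the 10, against 69% of all tested genes. The median size of the log2 difference over the 10 was 0.24, against 0.19 over all tested genes. KAT2B had the largest difference among the 10, larger than that of 95.1% of tested genes.

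**Figure D1:**
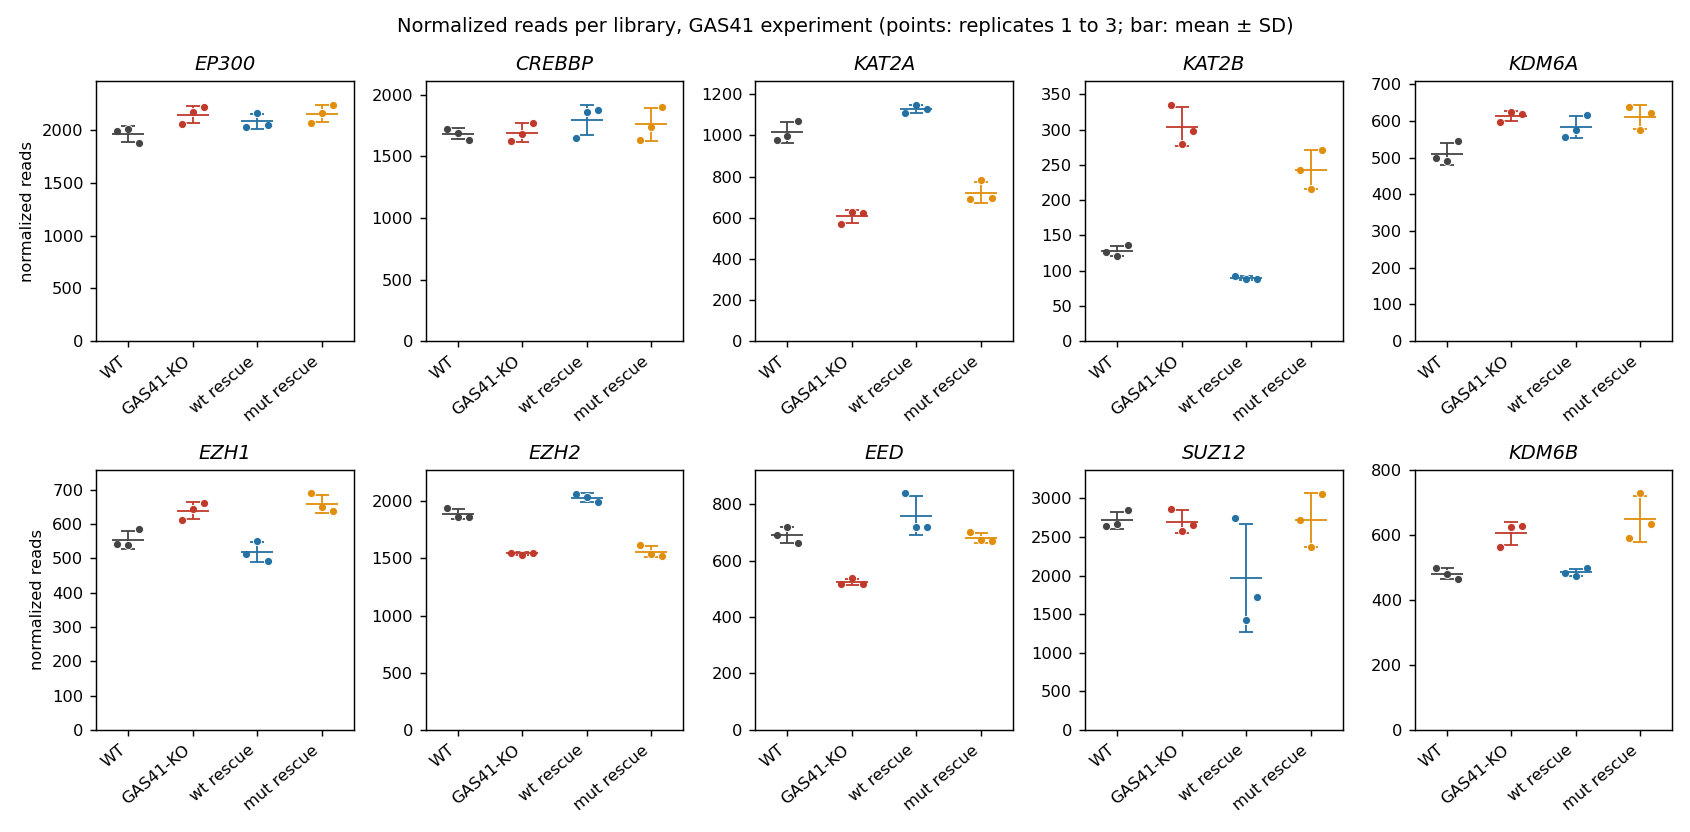
Normalized reads of the 10 genes in the 12 libraries of the GAS41 experiment, 1 panel per gene with its own axis from 0. Points are replicates 1 to 3 from left to right and bars the mean ± SD. KAT2A, EZH2 and EED sit lower in GAS41-KO than in WT, KAT2B sits higher in GAS41-KO and mut rescue, and SUZ12 is spread widely in wt rescue, from 1430 to 2752.

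The acetyltransferases EP300 and CREBBP were nearly level across the GAS41 experiment. EP300 was measured at 1998, 2017 and 1882 normalized reads in WT, 2056, 2171 and 2218 in GAS41-KO, 2034, 2168 and 2051 in wt rescue, and 2071, 2166 and 2239 in mut rescue. Every GAS41-KO library stood above every WT library, by a mean of 0.12 log2 that was not called (adjusted p = 0.0993). With only these 2 groups in the fit the EP300 difference was called (adjusted p = 0.00621). CREBBP was measured at 1726, 1687 and 1636 in WT, 1624, 1682 and 1773 in GAS41-KO, 1651, 1857 and 1877 in wt rescue, and 1634, 1738 and 1904 in mut rescue. The 4 groups overlapped, and the interval of the CREBBP difference between GAS41-KO and WT ran from -0.14 to 0.15 log2. By limma neither gene was called in any of the 6 GAS41 comparisons; at an unadjusted p under 0.05 EP300 was in 1 (mut rescue over WT, 0.047) and CREBBP in 0, and voom also called neither. Under quantile normalization EP300 was called lower in wt rescue than in GAS41-KO (-0.16, adjusted p = 0.0156) and higher in mut rescue than in wt rescue (0.15, adjusted p = 0.0325).

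KAT2A and KAT2B, which take the same place in SAGA and ATAC, moved in opposite directions. KAT2A was measured at 975.7, 998.2 and 1070 normalized reads in WT and at 570.7, 627.6 and 622.6 in GAS41-KO. It was measured at 1109, 1149 and 1127 in wt rescue and at 690.1, 781.3 and 694.2 in mut rescue. WT and wt rescue were high and GAS41-KO and mut rescue low, with no overlap between any of the 4. KAT2A fell 1.67-fold from WT to the knockout (log2 difference -0.63 ± 0.0616 SE, adjusted p = 3.98e-07), was 1.86-fold higher in wt rescue than in GAS41-KO (adjusted p = 2.86e-08), and was 1.56-fold lower in mut rescue than in wt rescue (adjusted p = 1.58e-06). Its order was GAS41-KO, mut rescue, WT and wt rescue from lowest to highest. Only WT and wt rescue were neighbours that did not differ by the test (adjusted p = 0.0781).

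KAT2B ran the other way. It was measured at 127, 120.9 and 135.7 normalized reads in WT, 335.2, 280.1 and 297.3 in GAS41-KO, 92.63, 87.62 and 87.74 in wt rescue, and 242.3, 215.5 and 271.6 in mut rescue. Every knockout library stood above every mut rescue library, every mut rescue library above WT, and every WT library above wt rescue. KAT2B was 2.38-fold higher in GAS41-KO than in WT (log2 difference 0.78 ± 0.0658 SE, adjusted p = 7.25e-08) and 3.41-fold lower in wt rescue than in GAS41-KO (adjusted p = 1.87e-09). It was 2.72-fold higher in mut rescue than in wt rescue (adjusted p = 5.26e-08), and all 6 comparisons of its 4 groups were called. Wt rescue stood 1.43-fold under WT (adjusted p = 0.00428), a call that was lost under quantile normalization (adjusted p = 0.0668).

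The 2 calls of these genes between mut rescue and GAS41-KO were near the threshold. KAT2A was 1.19-fold higher in mut rescue (adjusted p = 0.0341) and KAT2B 1.25-fold lower (adjusted p = 0.0328). The KAT2A call was lost without any 1 of GAS41-KO replicates 1, 2 and 3 or mut rescue replicates 1 and 2, with adjusted p from 0.0514 to 0.148. The KAT2B call was lost without GAS41-KO replicate 1 or 3 or mut rescue replicate 1 or 2, with adjusted p from 0.0775 to 0.153, and with only the 2 groups in the fit (0.0556), with quantile normalization (0.0597) and on the log2(normalized reads + 1) scale (0.0551). In that comparison 3 of the 10 genes were called, where 14.9% of all tested genes were, 2 higher (5.92% of all genes) and 1 lower (9% of all genes). The other was EED. The groups did not overlap for 3 of the 10, against 33.7% of all tested genes.

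In PRC2, the catalytic subunits also parted. EZH2 was measured at 1942, 1866 and 1861 normalized reads in WT, 1551, 1530 and 1549 in GAS41-KO, 2067, 2035 and 1990 in wt rescue, and 1620, 1541 and 1521 in mut rescue. WT and wt rescue were high, GAS41-KO and mut rescue low, and no library of the first 2 groups overlapped one of the last 2. EZH2 fell 1.22-fold from WT to GAS41-KO (log2 difference -0.27 ± 0.0534 SE, adjusted p = 0.000512) and was 1.32-fold higher in wt rescue than in GAS41-KO (adjusted p = 1.9e-05). Mut rescue did not differ from GAS41-KO by the test (0.01, interval -0.10 to 0.13, adjusted p = 0.902), nor wt rescue from WT (adjusted p = 0.144). The spread of EZH2 between replicates was small: 99.7% of tested genes had a larger SD within groups. Beside EZH2, 12 of 15 tested proliferation genes were lower in GAS41-KO than in WT (26.6% of all tested genes were), such as CCNA2 (2927 ± 105 to 1704 ± 118). In wt rescue 12 of the 15 were higher than in GAS41-KO (33% of all tested genes were). Their median difference between mut rescue and GAS41-KO was 0.06 log2. The part of cell division in the EZH2 difference was not tested.

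EZH1 was measured at 541.3, 537.3 and 584.4 normalized reads in WT, 611.6, 642.4 and 661.6 in GAS41-KO, 512, 549.7 and 492.4 in wt rescue, and 689.1, 649.6 and 637.8 in mut rescue. GAS41-KO and mut rescue were high without overlapping WT or wt rescue. EZH1 was 1.15-fold higher in GAS41-KO than in WT (adjusted p = 0.0266), 1.23-fold lower in wt rescue than in GAS41-KO (adjusted p = 0.00177) and 1.27-fold higher in mut rescue than in wt rescue (adjusted p = 0.000687). The first of these calls was lost without WT replicate 1 or 2 or GAS41-KO replicate 2 or 3, with adjusted p from 0.0713 to 0.103. Wt rescue did not differ from WT by the test (adjusted p = 0.281), nor mut rescue from GAS41-KO (adjusted p = 0.746).

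EED, the subunit that reads the finished mark, was the member of PRC2 that differed between mut rescue and the knockout. It was measured at 691.2, 717.7 and 661.3 normalized reads in WT, 516.8, 538.5 and 518.5 in GAS41-KO, 838.6, 718.7 and 719.4 in wt rescue, and 700.1, 672.5 and 668 in mut rescue. GAS41-KO was low, under every library of the other groups. EED was 1.32-fold lower in GAS41-KO than in WT (adjusted p = 0.000388), 1.45-fold higher in wt rescue than in GAS41-KO (adjusted p = 1.46e-05) and 1.3-fold higher in mut rescue than in GAS41-KO (adjusted p = 0.00328). The last call was kept without any 1 of the 6 libraries, with adjusted p from 0.00552 to 0.0203. Mut rescue and WT overlapped (-0.02, interval -0.15 to 0.11). Mut rescue did not differ from wt rescue by the test (adjusted p = 0.0812), though every mut rescue library stood below every wt rescue library. Wt rescue replicate 1 stood above replicates 2 and 3, and alone it gave a difference of -0.25 log2 between mut rescue and wt rescue.

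SUZ12, the scaffold, was set apart by 2 wt rescue libraries. It was measured at 2639, 2669 and 2845 normalized reads in WT, 2866, 2579 and 2649 in GAS41-KO, 2752, 1430 and 1720 in wt rescue, and 2723, 2370 and 3062 in mut rescue. Wt rescue replicate 1 lay among the libraries of the other groups, and replicates 2 and 3 lay below all of them. Its SD within groups was larger than that of 98.3% of tested genes. SUZ12 was called lower in wt rescue than in GAS41-KO (log2 difference -0.48, adjusted p = 0.0121) and than in WT (-0.49, adjusted p = 0.0153), and higher in mut rescue than in wt rescue (0.48, adjusted p = 0.0126). With wt rescue replicate 1 alone in its group, a single library, these differences were 0.03, 0.02 and -0.02. Without wt rescue replicate 1 they became -0.73, -0.74 and 0.73. Calls were also lost without wt rescue replicate 2 in all 3 comparisons (-0.29, -0.30 and 0.29, adjusted p = 0.0729, 0.0877 and 0.0749) and without replicate 3 (adjusted p = 0.0516, 0.0652 and 0.0542). The call against WT was lost without WT replicate 3 (adjusted p = 0.0516), and that between the rescue groups without mut rescue replicate 3 (adjusted p = 0.06). Between GAS41-KO and WT the SUZ12 difference was -0.01 with an interval from -0.33 to 0.31, which is wide against the differences of the other PRC2 genes.

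Genes listed for their long transcripts also differed between wt rescue and GAS41-KO. The transcript length of SUZ12 itself was not used. Of 40 genes with long transcripts, 25 were lower and 8 higher in wt rescue (33% and 33% of all tested genes). Their median difference was -0.39 log2 against -0.01 over all tested genes. Between GAS41-KO and WT their median was 0.16, whereas SUZ12 was level (-0.01). Their median relative to WT was -0.08, -0.13 and -0.10 in wt rescue replicates 1, 2 and 3, close together but in the order of SUZ12. In mut rescue it was 0.18, 0.06 and 0.33, also in the order of SUZ12. Its order differed from that of SUZ12 in WT (0.04, -0.04 and -0.005) and in GAS41-KO (0.14, 0.19 and 0.18). The medians of 26 ribosomal protein genes were 0.14, 0.34 and 0.35 in wt rescue replicates 1, 2 and 3. In mut rescue they were 0.18, 0.31 and 0.02, in the reverse order of SUZ12. In WT (-0.003, -0.002 and 0.02) and in GAS41-KO (0.15, 0.06 and 0.10) they followed the order of SUZ12. The part of RNA quality in the SUZ12 values was not tested. SUZ12P1, a pseudogene copied from part of SUZ12, had 71.15 to 76.49 normalized reads in WT and 78.45 to 93.63 in wt rescue. It was called higher in wt rescue than in GAS41-KO (adjusted p = 0.0392) and lower in mut rescue than in wt rescue (adjusted p = 0.0164). Both calls were opposite to those of SUZ12. How the counting divided reads between SUZ12 and SUZ12P1 is not given in the sources used here. The same holds for EP300-AS1, which overlaps EP300 and averaged between 31.65 and 43.01 normalized reads in the GAS41 groups.

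The demethylases were higher in the knockout. KDM6A was measured at 498.3, 490.1 and 545.5 normalized reads in WT, 598.6, 623.6 and 619.6 in GAS41-KO, 555.8, 576.8 and 615.2 in wt rescue, and 639.2, 575.7 and 620.7 in mut rescue. WT was low, and the other 3 groups overlapped one another. KDM6A was 1.2-fold higher than WT in GAS41-KO (adjusted p = 0.0068) and in mut rescue (adjusted p = 0.00916), and 1.14-fold higher in wt rescue (adjusted p = 0.046). The last call was lost without WT replicate 1 or 2 or wt rescue replicate 2 or 3 (adjusted p from 0.0805 to 0.18), without the filter on low reads (0.0612) and with only the 2 groups in the fit (0.0695). KDM6A was not called between wt rescue and GAS41-KO (-0.06, interval -0.19 to 0.06).

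KDM6B was measured at 498.3, 478.8 and 464.9 normalized reads in WT, 562.7, 624.6 and 625.6 in GAS41-KO, 481.1, 473.6 and 497.5 in wt rescue, and 589.4, 727.4 and 631.8 in mut rescue. WT and wt rescue were low and close together (0.01, interval -0.13 to 0.15), and GAS41-KO and mut rescue high. KDM6B was 1.26-fold higher in GAS41-KO than in WT (adjusted p = 0.00361), 1.25-fold lower in wt rescue than in GAS41-KO (adjusted p = 0.00337) and 1.34-fold higher in mut rescue than in wt rescue (adjusted p = 0.000448). Mut rescue and GAS41-KO overlapped and did not differ by the test (adjusted p = 0.472).

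**Figure D2:**
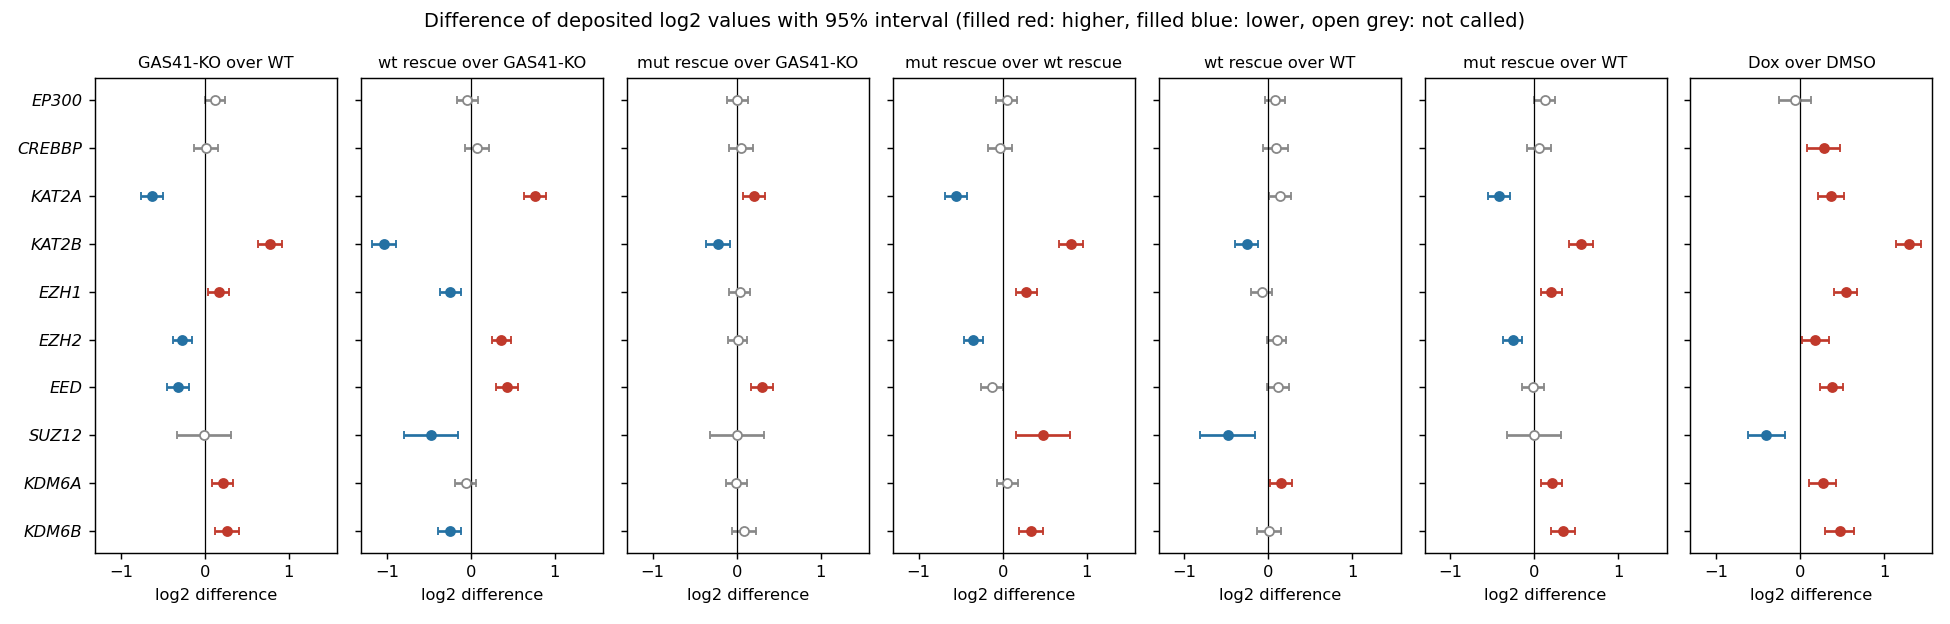
Difference of mean deposited log2 values for each gene in 7 comparisons, with 95% intervals; filled red points were called higher, filled blue points lower, and open grey points were not called. KAT2B has the largest difference in the comparisons of GAS41-KO with WT (0.78) and of Dox with DMSO (1.29), and the widest intervals of the GAS41 comparisons are those of SUZ12.

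Counted over the genes, 7 of 10 were called between wt rescue and GAS41-KO, where 66% of all tested genes were. KAT2A, EZH2 and EED were higher (33% of all genes were) and KAT2B, EZH1, SUZ12 and KDM6B lower (33% of all genes were), and the groups did not overlap for 6 of the 10 (68.8% of all genes). Without SUZ12, whose difference rests on wt rescue replicates 2 and 3, 6 were called. Of the 10, 6 were called between mut rescue and wt rescue (61.1% of all tested genes): KAT2B, EZH1, SUZ12 and KDM6B were higher (29.8% of all genes were) and KAT2A and EZH2 lower (31.3% of all genes were), and the groups did not overlap for 6 (57.9% of all genes).

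Against WT, 6 of the 10 were called in mut rescue (46.3% of all tested genes). KAT2B, EZH1, KDM6A and KDM6B were higher (23.5% of all genes were) and KAT2A and EZH2 lower (22.9% of all genes were), and the groups did not overlap for 7 (56% of all genes). In wt rescue 3 were called (50.1% of all tested genes): KDM6A was higher (27.4% of all genes were), KAT2B and SUZ12 were lower (22.7% of all genes were), and the groups did not overlap for 6 (57.3% of all genes). Each of these 3 calls was lost under an alternative named above. The comparisons share libraries. The difference of KAT2B between wt rescue and GAS41-KO was larger than that of 96.5% of tested genes.

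Ratios within the 4 pairs of genes with the same role were compared between groups. Gene lengths were not used, so only the change of a ratio between groups is read here, not its size. The ratio of EZH2 to EZH1 was 3.59, 3.47 and 3.19 in the WT libraries, 2.54, 2.38 and 2.34 in GAS41-KO, 4.04, 3.7 and 4.04 in wt rescue, and 2.35, 2.37 and 2.38 in mut rescue. It was low in GAS41-KO and mut rescue, without overlap with WT or wt rescue. The ratio of KAT2A to KAT2B was 7.68, 8.26 and 7.89 in WT, 1.7, 2.24 and 2.09 in GAS41-KO, 12, 13.1 and 12.8 in wt rescue, and 2.85, 3.63 and 2.56 in mut rescue. No 2 groups overlapped. In the GAS41 experiment, group means of EP300 to CREBBP lay between 1.16 and 1.27, and of KDM6A to KDM6B between 0.953 and 1.2. EP300 to CREBBP averaged 1.17 in WT and 1.27 in GAS41-KO, and 0.997 in DMSO and 0.759 in Dox, without overlap in either pair. KDM6A to KDM6B averaged 1.2 in wt rescue, without overlap with GAS41-KO (1.02) or mut rescue (0.953). Its DMSO (0.838) and Dox (0.705) libraries overlapped. Of 28 tests of 4 ratios in 7 comparisons, 18 reached 0.1, the smallest two-sided p that an exact permutation test of 3 against 3 libraries can give. That is 0.156 after Benjamini-Hochberg adjustment over the 28, so none passed the threshold.

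**Figure D3:**
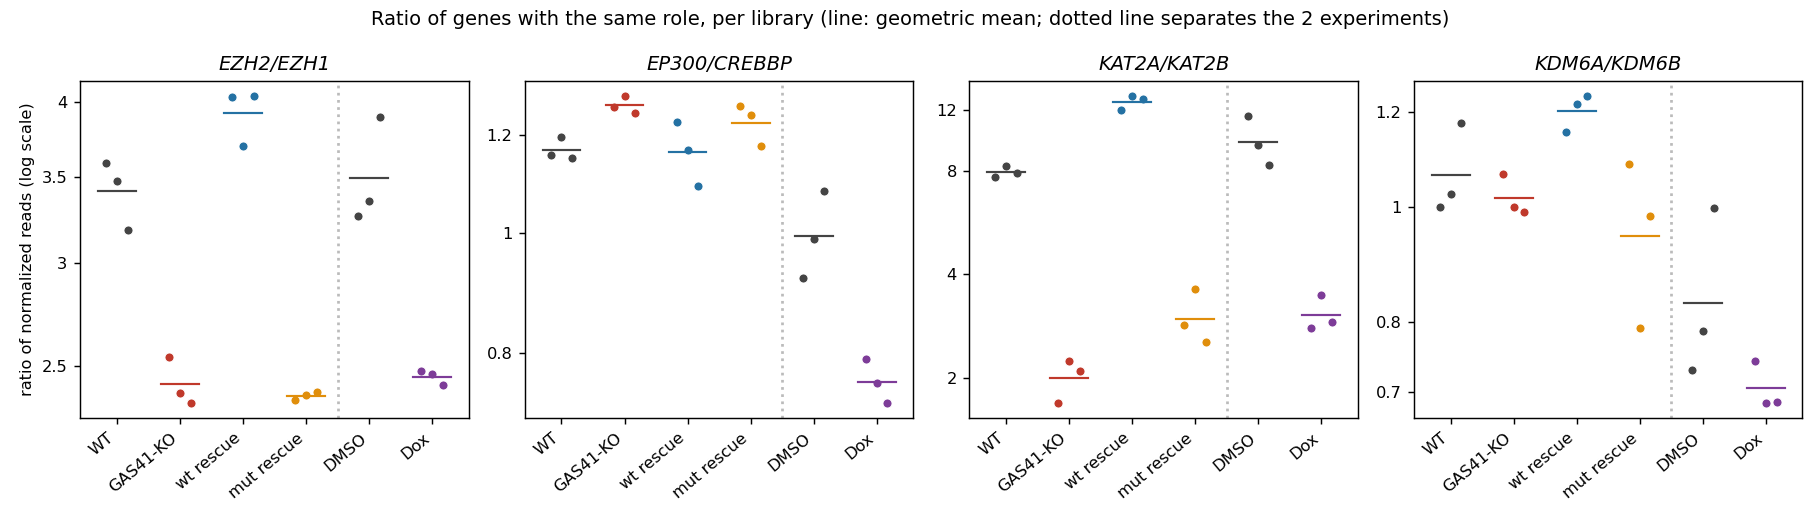
Ratio of normalized reads of 2 genes with the same role in each of the 18 libraries, on log axes that differ between panels; points are replicates 1 to 3, lines geometric means, and the dotted line parts the GAS41 from the doxorubicin experiment. EZH2/EZH1 is lower in GAS41-KO, mut rescue and Dox than in their controls, and KAT2A/KAT2B spans 1.7 to 13.1 in the GAS41 experiment.

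With doxorubicin, an intercalator and topoisomerase II poison that damages DNA, 9 of the 10 genes were called, where 65.7% of all tested genes were. KAT2B, EZH1, KDM6B, EED, KAT2A, CREBBP, KDM6A and EZH2 were higher in Dox (32.3% of all genes were), SUZ12 was lower (33.4% of all genes were), and EP300 was not called. The groups did not overlap for 8 of the 10 genes, against 69.1% of all tested genes. The median log2 difference over the 10 was 0.32, against -0.01 over all tested genes. YEATS4 fell in the same libraries from 694.4, 612.3 and 697.5 normalized reads in DMSO to 172.8, 193.4 and 188.4 in Dox (adjusted p = 3.58e-09).

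**Figure D4:**
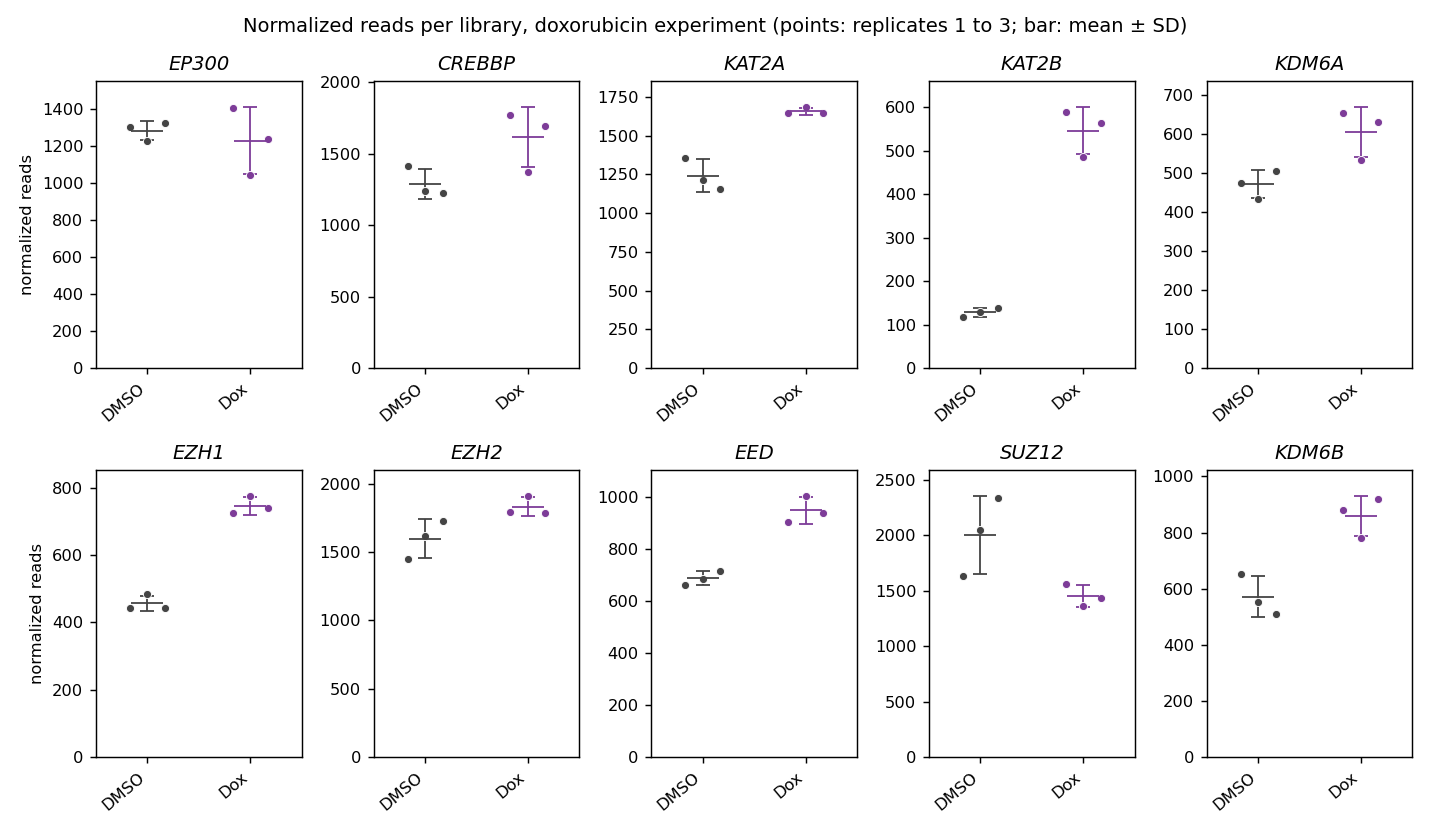
Normalized reads of the 10 genes in the 6 libraries of the doxorubicin experiment, 1 panel per gene with its own axis from 0; points are replicates 1 to 3 from left to right and bars the mean ± SD. KAT2B rises from at most 138.7 in DMSO to at least 484.5 in Dox, EP300 and CREBBP overlap between the groups, and SUZ12 sits lower in Dox.

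Among the acyltransferases, EP300 was measured at 1300, 1225 and 1323 normalized reads in DMSO and at 1404, 1041 and 1239 in Dox. The groups overlapped, and the interval of the difference ran from -0.25 to 0.13 log2. CREBBP was measured at 1412, 1238 and 1223 in DMSO and at 1774, 1376 and 1698 in Dox. It was 1.25-fold higher (adjusted p = 0.0142) although Dox replicate 2 lay under DMSO replicate 1. The CREBBP call was lost without Dox replicate 1 or 3 or DMSO replicate 2 (adjusted p = 0.0788, 0.064 and 0.0648).

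KAT2A was measured at 1358, 1213 and 1154 normalized reads in DMSO and at 1644, 1684 and 1644 in Dox, without overlap. It rose 1.34-fold (adjusted p = 0.000447), whereas GAS41-KO had less of it than WT. KAT2B was measured at 117.9, 128 and 138.7 in DMSO and at 588.7, 484.5 and 563.3 in Dox. Every Dox library was far above DMSO, and the rise was 4.25-fold (log2 difference 1.29 ± 0.0697 SE, adjusted p = 4.34e-09), larger in size than that of 96.6% of tested genes. The ratio of KAT2A to KAT2B was 11.5, 9.47 and 8.31 in DMSO and 2.79, 3.48 and 2.92 in Dox.

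In PRC2, EZH1 was measured at 443.3, 483.3 and 444.3 normalized reads in DMSO and at 725, 776.6 and 740.8 in Dox, a 1.64-fold rise without overlap (adjusted p = 6.11e-06). EED was measured at 663.9, 686.7 and 716 in DMSO and at 905.7, 1006 and 938.1 in Dox, a 1.38-fold rise (adjusted p = 0.000205). EZH2 was measured at 1447, 1620 and 1731 in DMSO and at 1795, 1912 and 1787 in Dox. All Dox libraries stood above DMSO, but the highest DMSO library was close to the lowest Dox library. The EZH2 difference was 1.15-fold (log2 0.18, adjusted p = 0.0492). It was not called without DMSO replicate 1 or 2 or Dox replicate 1, 2 or 3 (adjusted p from 0.0926 to 0.155), nor without the filter on low reads (0.0704), and it fell to 0.12 log2 without DMSO replicate 1. In these libraries 10 of 15 proliferation genes fell and 2 rose (33.4% and 32.3% of all tested genes). Among those that fell were CCNB1 (6674 ± 713 to 1825 ± 38.4) and MCM6 (6054 ± 81.6 to 2452 ± 32.3). EZH2 did not fall with them.

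SUZ12 was measured at 1637, 2045 and 2335 normalized reads in DMSO and at 1559, 1365 and 1434 in Dox. Dox was lower without overlap, by 1.38-fold (log2 difference -0.41, adjusted p = 0.00334), and DMSO was spread widely, with replicate 1 close to Dox. The call was kept without any 1 library, with log2 differences from -0.53 without DMSO replicate 1 to -0.30 without DMSO replicate 3. Ribosomal protein genes stood at 0.20, -0.06 and -0.12 in DMSO replicates 1, 2 and 3 relative to their DMSO mean. They stood at -0.50, -0.29 and -0.44 in the Dox replicates. Within each group this was the reverse order of SUZ12, although both they and SUZ12 were lower in Dox than in DMSO. The medians of the 40 long transcripts were -0.08, -0.02 and 0.15 in DMSO replicates 1, 2 and 3. In the Dox replicates they were -0.01, -0.25 and -0.03, and within each group they followed the order of SUZ12. Whether the state of these libraries bears on SUZ12 was not tested. SUZ12P1 was lower in Dox as well (78.37 ± 8.48 to 36.53 ± 4.27, adjusted p = 7.75e-05). How the counting divided reads between SUZ12 and SUZ12P1 is not given, so reads of the 2 cannot be told apart. The ratio of EZH2 to EZH1 was 3.26, 3.35 and 3.9 in DMSO and 2.48, 2.46 and 2.41 in Dox, lower in every Dox library (two-sided exact permutation p = 0.1, the smallest possible).

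Both demethylases rose with doxorubicin. KDM6A was measured at 475.8, 434.7 and 506.4 normalized reads in DMSO and at 653.9, 534.4 and 630.3 in Dox, without overlap and 1.28-fold higher (adjusted p = 0.00672). KDM6B was measured at 651.7, 552.8 and 508.4 in DMSO and at 880, 779.6 and 918.4 in Dox, 1.51-fold higher (adjusted p = 0.000214). The GAS41 and doxorubicin tables were normalized separately and came from different sequencers, so their levels are not compared. Side by side, KAT2B, EZH1, KDM6A and KDM6B were higher in both GAS41-KO and Dox against their own controls, and KAT2A, EZH2 and EED were lower in GAS41-KO but higher in Dox.

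The genes that work with these enzymes are given from lists of their complexes. The counts stand against 26% higher and 26.6% lower of all tested genes in GAS41-KO over WT, 33% and 33% in wt rescue over GAS41-KO, and 32.3% and 33.4% in Dox over DMSO, so that many are near the share of all genes. Of 9 tested PRC2 partners, 1 was higher and 2 lower in GAS41-KO than in WT (median -0.06 log2): PHF1, a Polycomb-like subunit, rose from 523.8 ± 48 to 834.4 ± 7.66 normalized reads (adjusted p = 2.25e-06), while the histone chaperone RBBP7 (3974 ± 23.7 to 3367 ± 87.8) and C17orf96, the elongin-binding partner EPOP (1244 ± 58.7 to 1062 ± 37), fell. In wt rescue PHF1 was lower and RBBP7 and PHF19 higher than in GAS41-KO. With doxorubicin 5 of 9 fell and none rose (median -0.22 against -0.01 over all genes). PHF19 fell from 1487 ± 115 to 565.9 ± 23.6 (adjusted p = 1.41e-08), MTF2 from 982 ± 139 to 619.2 ± 26.8 and RBBP7 from 4061 ± 131 to 2626 ± 133, so partners fell in the libraries where EED and EZH1 rose. LCOR, another partner, was spread like SUZ12 in wt rescue (730.2 ± 350 against 1552 ± 87.8 in WT).

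Of 23 subunits that hold KAT2A or KAT2B in SAGA and ATAC, 6 were higher and 8 lower in GAS41-KO than in WT (median 0.00). ENY2, of the deubiquitinase module, rose from 1692 ± 39 to 2255 ± 26.4, and SUPT3H fell from 158.8 ± 14.3 to 90.63 ± 9.33 and TADA1 from 471.1 ± 22.5 to 340.8 ± 20.8. In wt rescue over GAS41-KO 11 were higher and 5 lower, among them TADA2A, the ATAC adaptor, at 426.7 ± 25.2 against 270.7 ± 18.4. With doxorubicin 4 rose and 13 fell (median -0.25). Of the risers, SUPT7L went from 683.5 ± 37.3 to 1315 ± 43.3 and TADA2B, the SAGA adaptor, from 374.2 ± 20.9 to 555.4 ± 28.5.

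KDM6A is a subunit of the KMT2C and KMT2D methyltransferase complexes. Of its 9 partners there, none was higher and 6 were lower in GAS41-KO than in WT (median -0.17), in the libraries where KDM6A itself was higher. PAXIP1 fell from 693.8 ± 45 to 522.7 ± 13.3 normalized reads, NCOA6 from 1470 ± 85.8 to 1177 ± 63 and the core subunit WDR5 from 2129 ± 45.5 to 1712 ± 102. In wt rescue 6 were higher than in GAS41-KO and 1 lower, with WDR5 at 3059 ± 297. Their median difference between mut rescue and GAS41-KO was 0.04. KMT2C was lower in wt rescue than in WT with a wide spread (563.2 ± 250 against 1061 ± 32.1). With doxorubicin 1 rose, KMT2C (520.2 ± 129 to 849.7 ± 157), and 4 fell.

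Other lysine acetyltransferases did not share the doxorubicin response of KAT2B and CREBBP: 0 of 8 rose and 6 fell (median -0.30). KAT5, of the TIP60 complex that also holds GAS41, fell from 760 ± 49.2 to 398.9 ± 13.7 normalized reads, and KAT8 from 652.5 ± 23.5 to 317.4 ± 25.7. In GAS41-KO both of the 2 called genes were these, KAT5 lower at 387.4 ± 28.7 against 547.3 ± 28.4 in WT and KAT8 at 301.1 ± 13.3 against 436.2 ± 30.9. In wt rescue KAT5 stood at 696.5 ± 79.4 and KAT8 at 517.5 ± 34.7, both higher than in GAS41-KO. Of the 8, 3 were higher and 3 lower in that comparison.

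Enzymes that remove acyl groups from histones were called in both directions. Of 9 deacylases, 3 were higher and 1 lower in GAS41-KO than in WT (26% and 26.6% of all tested genes), with a median of 0.08 log2. HDAC2 fell from 4489 ± 132 to 2562 ± 59.8 normalized reads (adjusted p = 2.24e-08), whereas SIRT2 rose from 236.7 ± 20.9 to 410.7 ± 12.5 and HDAC1 from 5573 ± 124 to 6525 ± 210. HDAC2 stood only partly higher in wt rescue, at 3220 ± 134, and was under WT (adjusted p = 3.93e-05). With doxorubicin all 9 were called (65.7% of all tested genes were), 3 higher and 6 lower (median -0.26): SIRT2 rose from 345.4 ± 28.5 to 1077 ± 53.5, and HDAC2 fell from 4623 ± 142 to 2959 ± 99.4 and HDAC3 from 1790 ± 90.4 to 1230 ± 47.3.

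Of 11 tested genes that supply acyl-CoA, 4 were higher and 3 lower in GAS41-KO, and 2 rose and 7 fell with doxorubicin (median -0.27). DLAT, the acetyltransferase subunit of pyruvate dehydrogenase, fell in both, from 3245 ± 9.01 to 1913 ± 45 in the knockout and from 3033 ± 271 to 1286 ± 65.7 with doxorubicin. ACSS2, the acetyl-CoA synthetase, fell with doxorubicin from 856.9 ± 30.8 to 618.6 ± 4.33. Of 13 readers of acyl-lysine, a list that holds YEATS4 itself, 4 were higher and 2 lower in GAS41-KO, where the bromodomain gene BRD7 fell from 2146 ± 44.1 to 1131 ± 57.6, and 4 rose and 5 fell with doxorubicin. Of 5 methyltransferases of H3K36, whose mark hinders PRC2, none was higher and 3 were lower in GAS41-KO: WHSC1 (6307 ± 132 to 4682 ± 71.5), NSD1 (3430 ± 110 to 2695 ± 50.5) and WHSC1L1 (1205 ± 8.07 to 1036 ± 29.2). With doxorubicin WHSC1 fell to 2765 ± 138 from 5091 ± 116, and NSD1 rose.

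**Figure D5:**
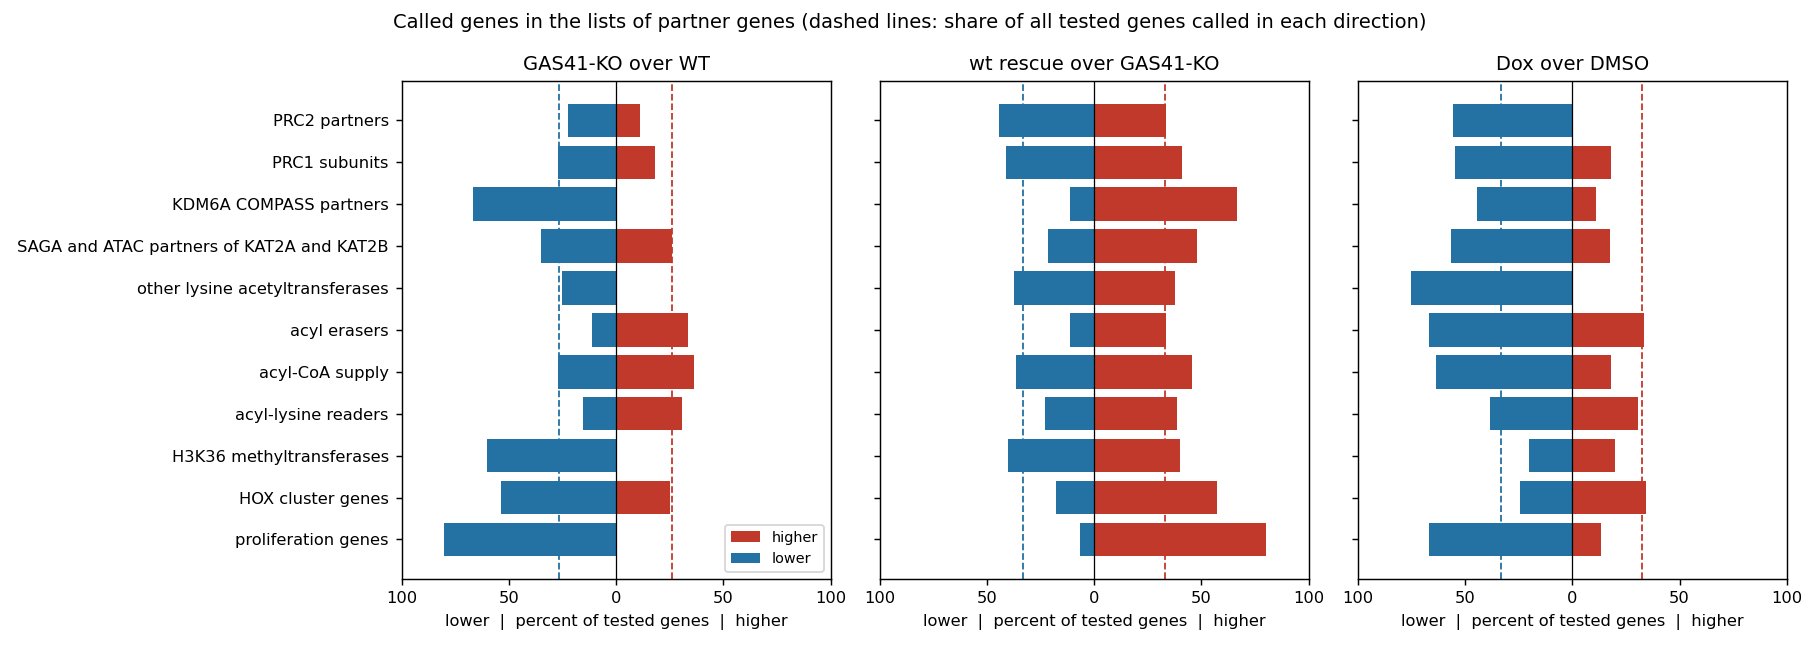
Percent of the tested genes of each partner list called higher (red, to the right) or lower (blue, to the left) in 3 comparisons; dashed lines mark the same shares over all tested genes. Of the PRC2 partners and of the other acetyltransferases none rose with doxorubicin, against 32.3% of all genes, and 6 of 9 COMPASS partners of KDM6A were lower in GAS41-KO, against 26.6%.

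For the genes of the set called in at least 4 of the 6 GAS41 comparisons, the most similar profiles over the 12 GAS41 libraries were sought among 10570 genes averaging at least 100 normalized reads, by Pearson's r as a description. The libraries share the 4 groups, so r is high for any gene that follows them. KAT2A was most like CD3EAP (r = 0.995), a subunit of RNA polymerase I, which averaged 289.8, 157.4, 336.1 and 192.1 normalized reads in WT, GAS41-KO, wt rescue and mut rescue. KAT2B was most like SESN3 (r = 0.992), a stress-induced sestrin, at 171.5, 1277, 55.58 and 686.6 in the same order. EZH2 was most like the mitotic checkpoint gene BUB1B (r = 0.987), at 3089, 2100.4, 3389 and 2219, followed by BUB1 and TRIP13. EZH1 was most like DGKA, a diacylglycerol kinase (r = 0.962), and KDM6B most like BBC3, which encodes the apoptosis protein PUMA (r = 0.966) and averaged 240.8, 393.1, 259.2 and 419.7. Between members, r over the 12 libraries was -0.99 for KAT2A and KAT2B and 0.94 for KAT2A and EZH2, as a description.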

How the data were processed

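The samples used were 18 RNA libraries, 12 of the GAS41 experiment (poly-A RNA, BGISEQ-500) and 6 of the doxorubicin experiment (Illumina HiSeq), per the labels' protocols. The other 26 samples, ChIP and input, were not used here. Tools named in the submitters' processing notes, without roles, include HTSeq, DESeq2, TopHat2 2.1.0, Bowtie 1.0.1, Trimmomatic 0.36 and CASAVA 1.4. The annotation and strandedness of counting are not given in the sources used here.

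The tables are named as counts, but the deposited unit is log2 after variance stabilization, as their values show. Inverting the transformation gave whole reads within 0.01 for 100% of values. Normalized reads are those reads divided by the size factor of the library. A deposited value 1 log2 above the lowest corresponds to 39.1 normalized reads (GAS41) or 52.6 (doxorubicin), so folds of low genes are understated on that scale.

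A gene was tested if 3 or more libraries held 10 or more of its reads, which left 14505 genes for GAS41 and 14195 for doxorubicin. The deposited log2 values were fitted with limma 3.58.1 in R 4.3.3 (empirical Bayes with a mean-dependent prior), with all 4 GAS41 groups in 1 fit and the doxorubicin groups in another. P-values were adjusted by Benjamini and Hochberg's method over all tested genes, with a threshold of 0.05. The script was tested on simulated data. Ratios of paired genes were tested by exact two-sided permutation.

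Members and lists were chosen with earlier results of these data known. The 10 members were named whatever their values. From each other list, up to 3 called genes with the smallest p in a comparison could be named, and for members called in at least 4 GAS41 comparisons the 3 genes with the most similar profile. Alternatives were no filter, log2(normalized reads + 1), voom on recovered reads, quantile normalization, a replicate block, only the 2 groups compared, each library left out, and wt rescue replicate 1 alone. Promoter sequences are RefSeq's on GRCh38.p14 and were matched by symbol for all 10 genes.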

Additional observations from a re-analysis of the deposited data

How the results depend on the processing

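Voom on the recovered reads kept the direction and call of all 70 differences (10 genes in 7 comparisons), log2(normalized reads + 1) of 69, no filter of 68 and quantile normalization of 58. Leaving out each library in turn gave 420 values, of which 363 kept direction and call, 33 lost the call and 24 changed direction. The count of genes called between mut rescue and GAS41-KO, 2164, ranged from 1271 to 2367 with a library left out, and that between wt rescue and WT, 7267, became 2326 with wt rescue replicate 1 alone, where the group is 1 library that is assumed to vary like the other groups. Apart from those of SUZ12 with wt rescue, the differences that changed direction were not called. Under quantile normalization these were wt rescue over GAS41-KO for CREBBP (-0.049), mut rescue over GAS41-KO for EP300 (-0.019), EZH2 (-0.012) and SUZ12 (-0.023), mut rescue over wt rescue for CREBBP (0.063), and wt rescue over WT for EP300 (-0.037), CREBBP (-0.018) and EZH2 (-0.012). With wt rescue replicate 1 alone, the differences of wt rescue from GAS41-KO, of wt rescue from WT and of mut rescue from wt rescue became -0.032, -0.025 and 0.081 for CREBBP and 0.028, 0.018 and -0.024 for SUZ12. With 1 library left out, values ranged over both signs, in GAS41-KO over WT for CREBBP (-0.024 to 0.034) and SUZ12 (-0.053 to 0.021), in mut rescue over GAS41-KO for EP300 (-0.023 to 0.034), CREBBP (-0.0050 to 0.097), EZH2 (-0.011 to 0.031), SUZ12 (-0.080 to 0.095) and KDM6A (-0.031 to 0.030), in mut rescue over wt rescue for CREBBP (-0.082 to 0.020), in wt rescue over WT for KDM6B (-0.010 to 0.029), in mut rescue over WT for EED (-0.042 to 0.0070) and SUZ12 (-0.091 to 0.084), and in Dox over DMSO for EP300 (-0.150 to 0.036). The cause was not tested. Of the 28 ratio tests, 18 reached the smallest possible p, and on the deposited log2 scale 19 did. With a library left out, where no test was made, the groups did not overlap for 18 to 24. Groups that are apart stay apart when a library is removed, so this number could not fall. Correlations of same-numbered libraries, taken on their deviations from group means, ran from -0.39 to 0.48 over the comparisons, and in none were all 3 over 0.1. With 3 libraries a group, these values cannot decide whether replicate numbers pair the libraries. With the number as a replicate block 7890 genes were called between GAS41-KO and WT and 9238 between Dox and DMSO, and of the 70 differences only EZH2 in Dox over DMSO changed its call (adjusted p = 0.06). With 3 libraries a group, 95% intervals reached more than 0.1 log2 to either side of the difference for all 10 genes, and more than 0.3 for SUZ12 in the GAS41 experiment.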

Other observations

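Genes of the HOX clusters are long known as targets of PRC2. Of 28 tested, 7 were higher and 15 lower in GAS41-KO than in WT, where 26% of all tested genes were higher and 26.6% lower (median -0.23 log2 against -0.01 over all tested genes). More of the called genes thus fell than rose. Among the 7 that rose, HOXB3 went from 210.4 ± 19.3 to 586.6 ± 40.2 normalized reads (SD, n = 3), HOXB5 from 247.7 ± 11 to 572.4 ± 25.7 and HOXB6 from 412.2 ± 31.5 to 818.6 ± 27. In wt rescue over GAS41-KO 16 were higher and 5 lower (33% and 33% of all tested genes), with HOXA11 at 262.2 ± 13.3 against 92.95 ± 7.19 and HOXB5 at 238.9 ± 11.5. In mut rescue over wt rescue 4 were higher and 21 lower (29.8% and 31.3% of all tested genes), and HOXA11 stood at 80.68 ± 4.78. In mut rescue over GAS41-KO none was higher and 6 were lower (5.92% and 9% of all tested genes), HOXB5 among them at 386.1 ± 28.8. With doxorubicin 10 of 29 rose and 7 fell (32.3% and 33.4% of all tested genes): HOXB13 went from 249.5 ± 10.9 to 721 ± 10.3 and HOXB8 from 685 ± 107 to 339 ± 25.4.

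Among 22 subunits of Polycomb repressive complex 1, which binds the mark that PRC2 writes, 4 were higher and 6 lower in GAS41-KO than in WT, near the shares of all tested genes (26% and 26.6%). BMI1 fell from 86.37 ± 8.58 to 30.88 ± 2.54 normalized reads and stood at 81.79 ± 5.99 in wt rescue, and CBX7 rose from 351.4 ± 40.8 to 591 ± 25.4. With doxorubicin 4 rose and 12 fell (median -0.19), against 32.3% and 33.4% of all tested genes, among them BMI1 (76.37 ± 10.5 to 24.59 ± 1.01), BCOR (574 ± 28.1 to 280.9 ± 28.3) and SCMH1 (537.9 ± 25.2 to 202.4 ± 1.12).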
